A study of Homo sapiens with 8 samples.

Results

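The genes described here encode the factors that start, carry forward and end protein synthesis in the cytoplasm: the initiation factors, the elongation factors, the 2 release factors, and the poly(A)-binding and LARP proteins that act on the same mRNAs, with TPT1. They were taken by symbol from the count tables, 50 genes of 60196 symbols used, by a rule that names symbols and no measured value. The values are raw RNA-seq read counts from 8 libraries in 4 groups of 2: MOLM-13 P-body, MOLM-13 cytosol, HEL P-body and HEL cytosol, with P-body and cytosol read from "pbody" and "cyto" in the library titles. MOLM-13 and HEL are established lines of acute myeloid leukaemia (AML); MOLM-13 has a monocytic character and HEL is an erythroleukaemia line. Both lines were grown in RPMI medium with fetal bovine serum, L-glutamine, beta-mercaptoethanol and antibiotics, and the labels name no drug or genetic change. The sources used here do not give the method by which the P-bodies were isolated. Separate cultures are not stated for the replicates, and the p-values then reflect spread between libraries that could be technical.

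P-bodies are granules of the cytoplasm that hold mRNAs away from ribosomes together with proteins of decapping and translational repression. A new chain starts when a small ribosomal subunit carrying the initiator tRNA is brought to the capped mRNA by the eIF4 and eIF3 proteins, finds a start codon and is joined by the large subunit; elongation factors then deliver the next tRNAs and move the ribosome along. Many mRNAs of this machinery begin with a run of pyrimidines, the 5′ terminal oligopyrimidine (TOP) tract, through which their own translation is turned up or down with the growth state of the cell.

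Library totals ran from 9868469 to 11000536 counts in MOLM-13 P-bodies, from 5897625 to 7098927 in MOLM-13 cytosol, from 17058567 to 18071473 in HEL P-bodies and from 13153551 to 15569634 in HEL cytosol. The lineage markers stood where the line names put them. Summed over 8 monocytic genes, the libraries held 1163 to 1779 counts per 1000000 (CPM) in MOLM-13 and 63.0 to 119.9 CPM in HEL. Over 8 erythroid and megakaryocytic genes they held 2.11 to 2.73 CPM in MOLM-13 and 1002 to 2340 CPM in HEL. The CPM sums in this paragraph are per library total, whereas CPM of single genes below are scaled by trimmed means of M values (TMM). Of 6 lymphoid markers the sums were 30.2 to 40.9 CPM in MOLM-13, with CD3E and CD2 at 0 counts in all 4 of its libraries, and 1.83 to 3.41 CPM in HEL. Mitochondrially encoded mRNAs (7 genes) moved with the fraction, at 3915 to 4022 CPM in MOLM-13 P-bodies against 7747 to 8830 CPM in MOLM-13 cytosol, and at 3021 to 3220 CPM in HEL P-bodies against 6144 to 6935 CPM in HEL cytosol. Nuclear noncoding RNAs (3 genes) summed to 2875 to 2879 CPM in MOLM-13 P-bodies against 5353 to 5677 CPM in MOLM-13 cytosol, and to 583 to 654 CPM in HEL P-bodies against 759.8 to 852 CPM in HEL cytosol. TMM factors were 0.860 and 0.858 in MOLM-13 P-bodies against 1.157 and 1.171 in MOLM-13 cytosol. In HEL they were 0.884 and 0.903 in P-bodies against 1.122 and 1.117 in cytosol. Scaling by these factors narrows the gaps between fractions, so the HEL nuclear sums cannot be taken as apart on that scale. The part of the mitochondrial and nuclear RNAs in the results was not tested. In such bulk fractions, fewer cells that hold an mRNA in P-bodies and less of that mRNA per cell cannot be told apart.

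The listed factors did not move as a block. Before a trend of the change on GC content and length was removed, EIF5B, EIF1AX and EIF5 of start-site selection and subunit joining, all 3 subunits of eIF2, both release factors, EIF4E and LARP4 were higher in P-bodies in both lines. No elongation factor was called higher in either line (EEF1D was with the trend removed), and EEF2, EIF5A and the scaffolds EIF4G1 and EIF4G3 were lower in both. EIF2S3 and GSPT1 were called higher in neither line once the trend was removed, and both EIF5A calls were lost. The trend was fitted to the change between fractions itself. Its removal takes out any difference between fractions that goes with GC content or length, whatever the source, which was not tested. In MOLM-13, 22 of 49 tested members were higher in P-bodies and 21 were lower (edgeR quasi-likelihood test, Benjamini-Hochberg adjusted p below 0.05), where 32.4% of all 14089 tested genes were higher and 28.5% were lower. In HEL, 18 of 49 were higher and 10 were lower, beside 27.5% and 27.1% of all 14772 tested genes. Changes of at least 2-fold were called higher for 9 members and lower for 0 in MOLM-13, beside 15.3% and 6.58% of all tested genes. In HEL they were called higher for 6 and lower for 1, EIF4G1, beside 12.6% and 6.34% of all tested genes, so changes of this size were more often upward over all genes as well. The median log2 change of the members, P-body over cytosol, was -0.07 in MOLM-13, where that of all tested genes was -0.04, and -0.01 in HEL, where that of all tested genes was -0.06. In MOLM-13 both P-body libraries were above both cytosolic ones for 22 members and below both for 24, beside 39.2% and 40.6% of all tested genes. In HEL the counts were 20 and 17 members, beside 35.3% and 41.1%.

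Set side by side, 16 members were called higher in both lines and 9 lower in both. The shares of all tested genes called alike in both lines were not counted, so these counts do not set the members apart. Those higher in both were EIF1AX, EIF5, EIF5B, EIF2S1, EIF2S2, EIF2S3, EIF2B3, EIF3A, EIF3E, EIF3J, EIF4A2, EIF4B, EIF4E, ETF1, GSPT1 and LARP4. Those lower in both were EEF2, EIF5A, EIF3B, EIF3C, EIF3D, EIF3F, EIF4G1, EIF4G3 and EIF4H. EIF4E2 alone was called in opposite directions. EEF1A1, EIF1, EIF2B4 and EIF4A1 passed the test in neither line, and EEF1G had 0 counts in all 8 libraries and could not be tested. Values scaled by library totals instead of TMM factors lowered every gene, with a shift of the median over all genes of -0.44 in MOLM-13 and -0.33 in HEL, and left 12 members higher in MOLM-13 and 30 lower in HEL; all changes given here are therefore relative to the bulk of genes.

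**Figure D1:**
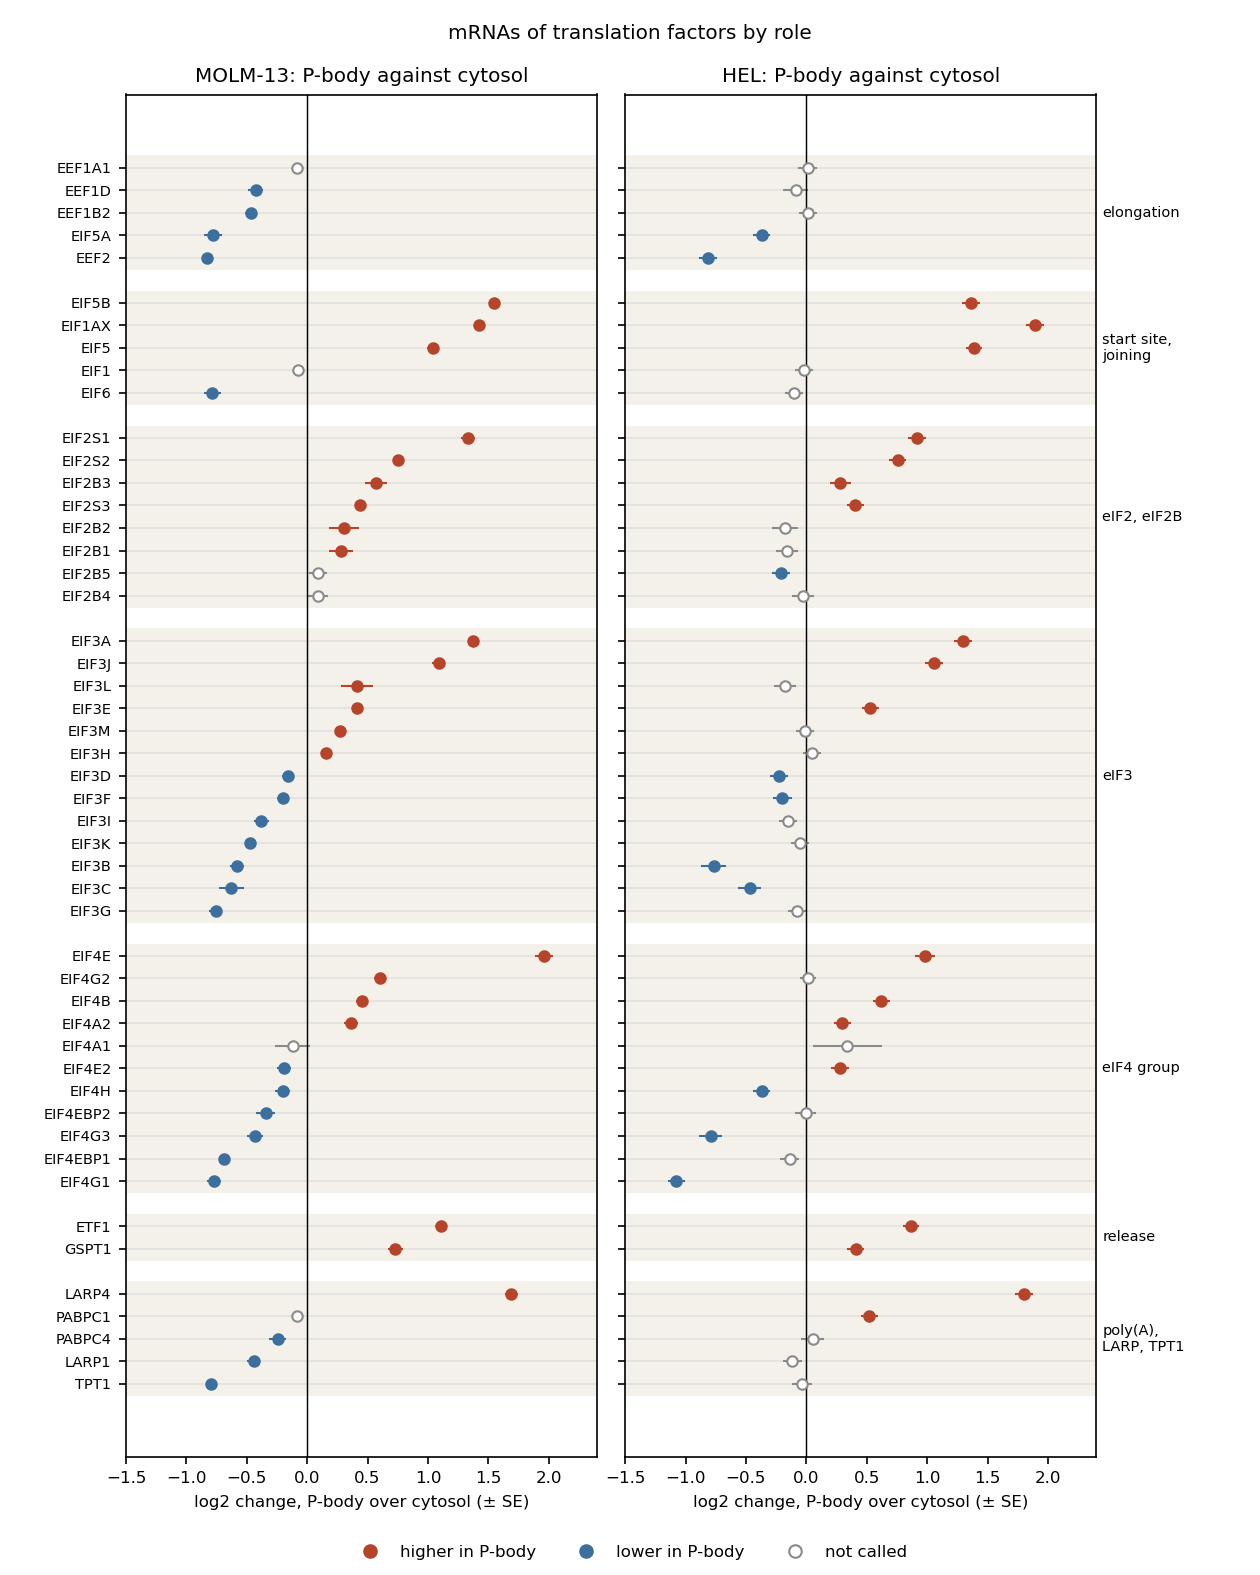
Each point is the log2 change of a member, P-body over cytosol, with its standard error, in MOLM-13 (left) and HEL (right), grouped by role and sorted by the MOLM-13 value; red is called higher in P-bodies, blue lower, open not called. The start-site and joining factors EIF5B, EIF1AX and EIF5 lie above 1 in both panels. In these values, from which no trend on GC content or length was removed, no elongation factor is called higher in either.

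The sequences at the start of the transcript are shown first, because the tract there defines the TOP class to which many of these mRNAs belong. Each line below gives the 30 bases from 10 before to 20 after a start listed in RefSeq (GRCh38.p14), 5′ to 3′ on the strand of the gene, with capitals marking a C followed by an unbroken run of at least 4 C or T that begins within 5 bases of the listed start. The first 6 hold such a tract and the last 4 do not.
EEF1A1: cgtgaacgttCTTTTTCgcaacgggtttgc
EEF1B2: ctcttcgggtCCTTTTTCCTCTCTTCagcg
EEF2: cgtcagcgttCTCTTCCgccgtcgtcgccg
TPT1: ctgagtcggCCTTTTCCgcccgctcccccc
EIF4B: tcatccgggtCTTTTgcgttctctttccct
EIF3F: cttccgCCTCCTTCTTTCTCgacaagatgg
EIF5B: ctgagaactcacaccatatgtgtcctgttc
EIF1AX: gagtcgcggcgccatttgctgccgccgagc
EIF4E: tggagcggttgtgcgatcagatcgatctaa
EIF2S1: gaggttccgcatgcgcggtggagtgagcga
The windows lie at chr6:73521013-73521042 (EEF1A1, minus strand), chr2:206159885-206159914 (EEF1B2, second listed start, plus strand), chr19:3985444-3985473 (EEF2, minus strand), chr13:45341164-45341193 (TPT1, minus strand), chr12:53006446-53006475 (EIF4B, plus strand), chr11:7987327-7987356 (EIF3F, plus strand), chr2:99337379-99337408 (EIF5B, plus strand), chrX:20141819-20141848 (EIF1AX, minus strand), chr4:98929114-98929143 (EIF4E, minus strand) and chr14:67360318-67360347 (EIF2S1, plus strand). Of the 40 members in the RefSeq promoter table, 17 held such a tract at one or more of their listed starts, 42.5%, against 18.8% of all 27305 genes in that table. With a tract allowed to begin within 10 bases, the shares were 52.5% and 30.6%. Only the transcribed strand was searched, and a match describes these letters and not a tested regulatory site.

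No elongation factor was called higher in P-bodies without correction for GC content and length. Of the 5 tested, 4 were lower in MOLM-13 P-bodies and 2 in HEL P-bodies, beside 28.5% and 27.1% of all tested genes. EEF2 is the GTPase that moves the ribosome along by a codon (chr19:3976056-3985469, minus strand, in GENCODE release 29 on GRCh38, as for the genes below). It had 627 and 632 CPM in MOLM-13 P-bodies against 1113 and 1121 CPM in MOLM-13 cytosol. In HEL, EEF2 had 189.7 and 189 CPM in P-bodies against 315 and 351 CPM in cytosol. All P-body libraries were below all cytosolic ones of the same line, with log2 changes of -0.83 ± 0.041 (SE, adjusted p = 5.3e-15) in MOLM-13 and -0.81 ± 0.075 (adjusted p = 2.77e-07) in HEL. EIF5A, which carries hypusine and relieves stalled ribosomes, had 60.3 and 59.3 CPM in MOLM-13 P-bodies against 102 and 103 CPM in MOLM-13 cytosol. In HEL, EIF5A had 275 and 274 CPM in P-bodies against 351 and 359.6 CPM in cytosol. Its groups were apart in both lines, with log2 changes of -0.78 ± 0.072 (adjusted p = 8.38e-10) in MOLM-13 and -0.37 ± 0.068 (adjusted p = 0.000296) in HEL. With a smooth trend of the change on GC content and transcript length removed, both EIF5A calls were lost, while both EEF2 calls held.

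The eEF1 subunits were lower in MOLM-13 or not called, and none was called in HEL. EEF1B2, an exchange factor that recharges EEF1A1 with GTP, had 351 and 369 CPM in MOLM-13 P-bodies against 502 and 491 CPM in MOLM-13 cytosol. In HEL, EEF1B2 had 210.5 and 220.1 CPM in P-bodies against 218 and 208 CPM in cytosol. In MOLM-13 the groups were apart, with a log2 change of -0.46 ± 0.047 (adjusted p = 3.96e-09). The HEL groups overlapped, at 0.01 ± 0.072 (adjusted p = 0.892). EEF1D, another subunit of that exchange complex, followed the same split, at -0.43 ± 0.061 in MOLM-13, which was called, and -0.09 ± 0.10 in HEL, which was not. With the GC and length trend removed EEF1D was called higher in both lines, at 0.16 (adjusted p = 0.0348) in MOLM-13 and 0.48 (adjusted p = 0.00177) in HEL; 34.0% of its exon length is overlapped by genes of the opposite strand. EEF1A1, which delivers aminoacyl-tRNA, had 4564 and 4887 CPM in MOLM-13 P-bodies against 5049 and 4974 CPM in MOLM-13 cytosol. In HEL, EEF1A1 had 2204 and 1920 CPM in P-bodies against 2033 and 2063 CPM in cytosol. It passed the test in neither (adjusted p = 0.0674 in MOLM-13 and 0.927 in HEL), and with the trend removed it was called lower in MOLM-13, at -0.38. The summed counts of 42 EEF1A1 pseudogenes equalled 5.45% to 7.91% of its own counts, so reads may be shared between them. EEF1G, the scaffold of the exchange complex, has 99.9% of its exon length covered on the same strand by a longer annotated gene (ENSG00000255508), which had 0 to 3 counts a library, and its own zeros are no measure of its expression.

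Of the 5 factors of start-site selection and subunit joining, 3 were at least 2-fold higher in P-bodies in both lines. Of all tested genes, 15.3% in MOLM-13 and 12.6% in HEL were called at that size. EIF5B, the GTPase that joins the large subunit (chr2:99337353-99401326, plus strand), had 5794 and 5917 CPM in MOLM-13 P-bodies against 2055 and 1960 CPM in MOLM-13 cytosol. In HEL, EIF5B had 964 and 1056 CPM in P-bodies against 388 and 398 CPM in cytosol. It was 2.92-fold higher in P-bodies in MOLM-13 (log2 change 1.54 ± 0.040, adjusted p = 1.46e-20) and 2.57-fold higher in HEL (1.36 ± 0.072, adjusted p = 6.72e-10). EIF1AX, which with EIF1 keeps the scanning subunit open (chrX:20124518-20141844, minus strand), had 988 and 1008 CPM in MOLM-13 P-bodies against 378 and 365 CPM in MOLM-13 cytosol. In HEL, EIF1AX had 343 and 362 CPM in P-bodies against 98.7 and 91.6 CPM in cytosol. Its rise was 2.69-fold in MOLM-13 (1.43 ± 0.044, adjusted p = 3.91e-19) and 3.71-fold in HEL (1.89 ± 0.077, adjusted p = 5.5e-11), the highest of all members in HEL. EIF5, which triggers GTP hydrolysis on eIF2 at the start codon, had 701 and 737 CPM in MOLM-13 P-bodies against 337 and 361 CPM in MOLM-13 cytosol. In HEL, EIF5 had 539 and 552 CPM in P-bodies against 204 and 213 CPM in cytosol. The groups of EIF5 were apart in both lines, with log2 changes of 1.04 ± 0.048 (adjusted p = 9.08e-16) and 1.39 ± 0.069 (adjusted p = 3.55e-10). With the GC and length trend removed all 3 were still called higher in both lines but none was 2-fold: EIF5B was at 0.80 in MOLM-13 and 0.61 in HEL, EIF1AX at 0.66 and 0.98, and EIF5 at 0.41 and 0.83.

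Neither of the other start-site factors was called higher before that trend was removed. EIF1, which guards start-codon fidelity, was at -0.07 ± 0.045 in MOLM-13 and -0.02 ± 0.072 in HEL, called in neither (adjusted p = 0.163 and 0.856). EIF6, which binds the large subunit and keeps it from joining too early, had 79.7 and 90.3 CPM in MOLM-13 P-bodies against 147 and 146 CPM in MOLM-13 cytosol. In HEL, EIF6 had 179 and 172 CPM in P-bodies against 187 and 190.2 CPM in cytosol. The MOLM-13 groups lay far apart (log2 change -0.78 ± 0.068, adjusted p = 2.88e-10), whereas the HEL groups differed by less than the test could call (-0.10 ± 0.073, adjusted p = 0.244). With the trend removed EIF1 was called higher in MOLM-13, at 0.25 (adjusted p = 6.68e-05), and EIF6 was called higher in HEL, at 0.32 (adjusted p = 0.0025), and lower in MOLM-13, at -0.29.

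**Figure D2:**
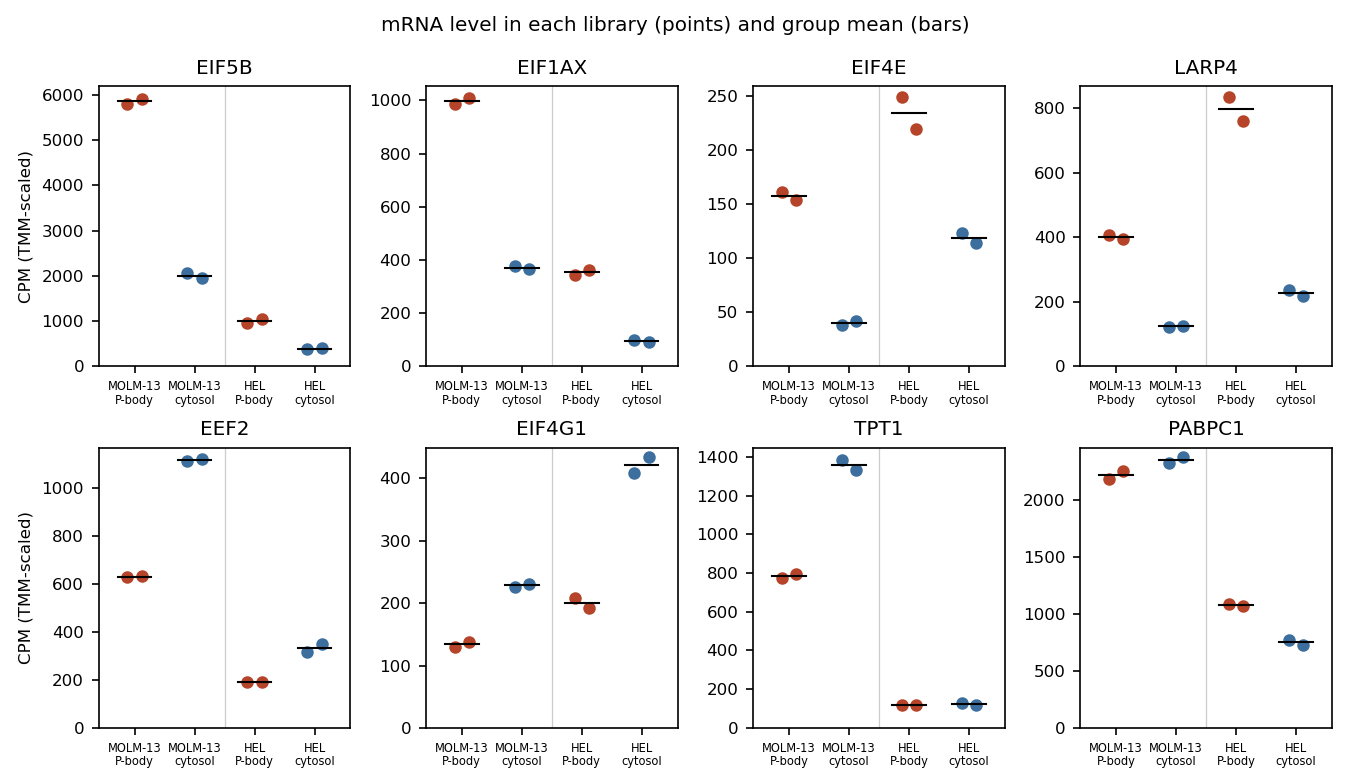
TMM-scaled CPM of 8 members in each library, with P-body libraries in red and cytosolic libraries in blue and a bar at each group mean; every axis starts at 0. EIF5B, EIF1AX, EIF4E and LARP4 lie higher in P-bodies in both lines, EEF2 and EIF4G1 lie lower in both, TPT1 lies lower in MOLM-13 while its HEL groups overlap, and PABPC1 lies higher in HEL.

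The 3 subunits of eIF2, which carries the initiator tRNA, were higher in P-bodies in both lines. EIF2S1, the alpha subunit whose phosphorylation shuts initiation down under stress (chr14:67359997-67386516, plus strand), had 236 and 236 CPM in MOLM-13 P-bodies against 97.2 and 90.9 CPM in MOLM-13 cytosol. In HEL, EIF2S1 had 406 and 404 CPM in P-bodies against 222 and 207 CPM in cytosol. With no overlap between groups, it rose 2.52-fold in MOLM-13 (1.33 ± 0.059, adjusted p = 5.63e-16) and 1.89-fold in HEL (0.92 ± 0.071, adjusted p = 3.86e-08). EIF2S2, the beta subunit, was at 0.76 ± 0.041 in MOLM-13 and 0.76 ± 0.073 in HEL. EIF2S3, the gamma subunit that binds GTP and the tRNA, was at 0.44 ± 0.045 in MOLM-13 and 0.41 ± 0.073 in HEL, and with the GC and length trend removed its MOLM-13 call turned to lower and its HEL call was lost. The 5 subunits of eIF2B, the exchange factor of eIF2, moved less. EIF2B3 alone was called higher in both lines, at 0.57 ± 0.090 in MOLM-13 and 0.28 ± 0.085 in HEL. EIF2B1 and EIF2B2 of the regulatory part were called higher in MOLM-13, at 0.28 ± 0.099 and 0.31 ± 0.13, and in HEL stood at -0.16 ± 0.092 and -0.18 ± 0.11 without a call. These MOLM-13 calls held under 5 and 3 of 13 alternatives, and with the trend removed they stood at -0.06 and -0.02 without a call, while both were called lower in HEL. EIF2B5, the catalytic subunit, was called lower in HEL at -0.21 ± 0.075 and was not called in MOLM-13 at 0.09 ± 0.076; EIF2B4 was called in neither, at 0.09 ± 0.084 and -0.03 ± 0.089. The EIF2B5 call in HEL held under 6 of the 13, and with the trend removed EIF2B4 was called higher in both lines, at 0.42 and 0.38.

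The 13 subunits of eIF3, the scaffold that holds the small subunit on the mRNA, split although they act in a single complex. In MOLM-13, 6 were higher and 7 lower in P-bodies, with log2 changes from -0.76 to 1.37, beside 32.4% and 28.5% of all tested genes. In HEL, 3 were higher and 4 lower, from -0.77 to 1.30, beside 27.5% and 27.1%. EIF3A, the largest subunit and a core of the complex (chr10:119033670-119080823, minus strand), had 5165 and 5031 CPM in MOLM-13 P-bodies against 1973 and 1969 CPM in MOLM-13 cytosol. In HEL, EIF3A had 1497 and 1359 CPM in P-bodies against 581 and 581 CPM in cytosol. That was a rise of 2.59-fold in MOLM-13 (1.37 ± 0.038, adjusted p = 6.9e-20) and of 2.46-fold in HEL (1.30 ± 0.072, adjusted p = 1.12e-09). EIF3J, a loosely bound subunit at the decoding site, had 790.4 and 791 CPM in MOLM-13 P-bodies against 399 and 346 CPM in MOLM-13 cytosol. In HEL, EIF3J had 346 and 356 CPM in P-bodies against 177 and 161 CPM in cytosol. Both rises of EIF3J passed the test (1.09 ± 0.052, adjusted p = 2.6e-15 in MOLM-13; 1.06 ± 0.075, adjusted p = 1.43e-08 in HEL). EIF3E, called higher in both lines at 0.41 ± 0.040 in MOLM-13 and 0.53 ± 0.069 in HEL, turned to lower in both once the GC and length trend was removed.

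On the cytosolic side of eIF3 stood EIF3B, EIF3C, EIF3D and EIF3F in both lines and EIF3G, EIF3I and EIF3K in MOLM-13. EIF3B, which with EIF3G and EIF3I forms a module near the mRNA entry, had 167 and 184 CPM in MOLM-13 P-bodies against 262 and 264 CPM in MOLM-13 cytosol. In HEL, EIF3B had 207 and 266 CPM in P-bodies against 380.2 and 425 CPM in cytosol. Its P-body libraries were all below cytosol, at -0.58 ± 0.056 (adjusted p = 1.71e-09) in MOLM-13 and -0.77 ± 0.10 (adjusted p = 1.31e-05) in HEL. EIF3G had 239 and 253 CPM in MOLM-13 P-bodies against 429 and 402 CPM in MOLM-13 cytosol. In HEL, EIF3G had 177 and 185 CPM in P-bodies against 178 and 203 CPM in cytosol. The MOLM-13 groups of EIF3G were apart (-0.76 ± 0.051, adjusted p = 2.04e-12) and the HEL groups overlapped (-0.07 ± 0.082, adjusted p = 0.469); with the trend removed the MOLM-13 call was lost and HEL was called higher, at 0.40. EIF3C, a core subunit that binds EIF1 and EIF5, had 29.7 and 31.5 CPM in MOLM-13 P-bodies against 50.2 and 44.7 CPM in MOLM-13 cytosol. In HEL, EIF3C had 52.2 and 53.8 CPM in P-bodies against 70.8 and 76.2 CPM in cytosol. EIF3C was called lower in both, at -0.63 ± 0.10 (adjusted p = 7.99e-06) and -0.47 ± 0.091 (adjusted p = 0.000486), but it shares its sequence with the near-identical EIF3CL, so how reads were split between them is uncertain. The HEL call of EIF3C was lost once the trend was removed, at -0.12.

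The remaining eIF3 subunits moved by less than those at the ends of the range. EIF3D, which can itself bind the cap of some mRNAs, was at -0.16 ± 0.046 in MOLM-13 and -0.23 ± 0.074 in HEL, and EIF3F at -0.20 ± 0.050 and -0.20 ± 0.080, all 4 called lower. In HEL these calls held under 6 of 13 alternatives for EIF3D and under 2 for EIF3F, whose adjusted p was 0.0487, and both were lost with the trend removed. In MOLM-13 they held under 8 and 10, and with the trend removed EIF3D was not called and EIF3F was called higher, at 0.17. EIF3I was at -0.38 ± 0.058 in MOLM-13 and -0.15 ± 0.073 in HEL, and EIF3K at -0.47 ± 0.047 and -0.05 ± 0.075, called in MOLM-13 and not in HEL. Once the trend was removed, EIF3K was at 0.01 in MOLM-13 without a call and was called higher in HEL, at 0.23. EIF3H, EIF3L and EIF3M were called higher in MOLM-13, at 0.16 ± 0.044, 0.41 ± 0.13 and 0.27 ± 0.045, and stood at 0.05 ± 0.072, -0.18 ± 0.092 and -0.01 ± 0.072 in HEL without a call. These MOLM-13 calls held under 8, 9 and 10 of 13 alternatives; 41.1% of the exon length of EIF3L is shared on the same strand with another annotated gene.

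Within the eIF4 group the cap-binding protein and its scaffold moved in opposite directions. EIF4E, which binds the cap (chr4:98871684-98930637, minus strand), had 161 and 154 CPM in MOLM-13 P-bodies against 38.4 and 42.1 CPM in MOLM-13 cytosol. In HEL, EIF4E had 249 and 219.5 CPM in P-bodies against 124 and 114 CPM in cytosol. It was 3.89-fold higher in MOLM-13 P-bodies (1.96 ± 0.075, adjusted p = 2.35e-17), the highest of all members there, and 1.97-fold higher in HEL P-bodies (0.98 ± 0.084, adjusted p = 1.21e-07). EIF4G1, the scaffold that links EIF4E to the helicase and to poly(A)-binding protein (chr3:184314495-184335358, plus strand), had 130.0 and 138 CPM in MOLM-13 P-bodies against 226 and 231 CPM in MOLM-13 cytosol. In HEL, EIF4G1 had 208 and 192 CPM in P-bodies against 409 and 434 CPM in cytosol. EIF4G1 fell in both lines, at -0.77 ± 0.057 (adjusted p = 1.07e-11) in MOLM-13 and -1.08 ± 0.074 (adjusted p = 1.03e-08) in HEL, the lowest of all members in HEL. EIF4G3, its paralog, had 109 and 95.8 CPM in MOLM-13 P-bodies against 134 and 142 CPM in MOLM-13 cytosol. In HEL, EIF4G3 had 66.3 and 76.7 CPM in P-bodies against 117 and 130.2 CPM in cytosol. It followed EIF4G1, with -0.43 ± 0.069 (adjusted p = 6.71e-06) in MOLM-13 and -0.79 ± 0.094 (adjusted p = 4.55e-06) in HEL. EIF4G2, a related scaffold that lacks the part binding EIF4E, had 390.3 and 412 CPM in MOLM-13 P-bodies against 266 and 263 CPM in MOLM-13 cytosol. In HEL, EIF4G2 had 1113 and 1054 CPM in P-bodies against 1102 and 1044 CPM in cytosol. EIF4G2 was called higher in MOLM-13, at 0.60 ± 0.049, and in HEL its groups overlapped, at 0.01 ± 0.069; with the trend removed the MOLM-13 call was lost and HEL was called lower, at -0.39.

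Among the partners of these proteins, EIF4EBP1, which sequesters EIF4E when mTOR is inactive, had 381 and 385 CPM in MOLM-13 P-bodies against 622 and 611 CPM in MOLM-13 cytosol. In HEL, EIF4EBP1 had 177 and 201 CPM in P-bodies against 199 and 216 CPM in cytosol. Its MOLM-13 groups were apart (-0.69 ± 0.044, adjusted p = 8.38e-13) and its HEL groups overlapped (-0.14 ± 0.082, adjusted p = 0.167). With the GC and length trend removed EIF4EBP1 was called higher in both lines, at 0.24 in MOLM-13 and 0.40 in HEL. EIF4EBP2, of the same family, was called lower in MOLM-13 at -0.34 ± 0.082 and was at -0.01 ± 0.086 in HEL. EIF4E2, a cap-binding relative used in repression, had 140.3 and 143 CPM in MOLM-13 P-bodies against 157 and 167 CPM in MOLM-13 cytosol. In HEL, EIF4E2 had 175 and 172 CPM in P-bodies against 146 and 139 CPM in cytosol. It was below cytosol in MOLM-13 (-0.19 ± 0.059, adjusted p = 0.0062) and above it in HEL (0.28 ± 0.075, adjusted p = 0.00554); its MOLM-13 change was 0.01 and not called with the GC and length trend removed, and its HEL change was -0.05 and not called when scaled by library totals.

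The helicase and its cofactors made up the rest of the group. EIF4A2, the helicase paralog, and EIF4B, its RNA-binding cofactor, were higher in both lines, at 0.36 ± 0.055 and 0.45 ± 0.048 in MOLM-13 and at 0.30 ± 0.071 and 0.62 ± 0.072 in HEL. The calls of EIF4A2 turned to lower in both lines with the GC and length trend removed, and those of EIF4B held. EIF4H, another cofactor of the helicase, had 117 and 112 CPM in MOLM-13 P-bodies against 134 and 129 CPM in MOLM-13 cytosol. In HEL, EIF4H had 232 and 216 CPM in P-bodies against 285 and 295 CPM in cytosol. The shift of EIF4H was small and called in both (-0.20 ± 0.063, adjusted p = 0.00746; -0.37 ± 0.072, adjusted p = 0.000468), and it was lost in both with the trend removed. EIF4A1, the main helicase of this complex, had no more than 208 counts in any library; 48.6% of its exon length is shared on the same strand with other annotated genes and its pseudogenes held 55.1% to 467% as many counts, so its values (-0.12 ± 0.14 and 0.34 ± 0.29, not called) are uncertain.

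Both release factors were higher in P-bodies in both lines. ETF1, which recognises the stop codons (chr5:138506095-138543300, minus strand), had 435 and 454 CPM in MOLM-13 P-bodies against 203 and 208 CPM in MOLM-13 cytosol. In HEL, ETF1 had 442 and 428 CPM in P-bodies against 239 and 238 CPM in cytosol. Its groups did not overlap, with 1.11 ± 0.050 (adjusted p = 5.96e-16) in MOLM-13 and 0.87 ± 0.068 (adjusted p = 4.79e-08) in HEL. GSPT1, the GTPase partner of ETF1, was at 0.73 ± 0.060 in MOLM-13 and 0.41 ± 0.067 in HEL, but with the GC and length trend removed its MOLM-13 call was lost and its HEL call turned to lower.

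Among the proteins of the mRNA tail, LARP4, which binds poly(A) and stabilises mRNAs (chr12:50392383-50480004, plus strand), had 408 and 395 CPM in MOLM-13 P-bodies against 123 and 126 CPM in MOLM-13 cytosol. In HEL, LARP4 had 834 and 762 CPM in P-bodies against 238 and 219.9 CPM in cytosol. LARP4 was 3.23-fold higher in MOLM-13 P-bodies (1.69 ± 0.053, adjusted p = 5.33e-19) and 3.48-fold higher in HEL P-bodies (1.80 ± 0.076, adjusted p = 8.08e-11). LARP1, which binds the cap and the TOP tract and represses TOP mRNAs when mTOR is inactive, went the other way in MOLM-13, at -0.44 ± 0.052, and was at -0.12 ± 0.081 in HEL without a call. PABPC1, the major cytoplasmic poly(A)-binding protein, had 2177 and 2247 CPM in MOLM-13 P-bodies against 2316 and 2373 CPM in MOLM-13 cytosol. In HEL, PABPC1 had 1081 and 1067 CPM in P-bodies against 771 and 725 CPM in cytosol. It was not called in MOLM-13 (-0.08 ± 0.039, adjusted p = 0.0644) and was higher in HEL P-bodies (0.52 ± 0.068, adjusted p = 1.23e-05). Its paralog PABPC4 was called lower in MOLM-13 at -0.24 ± 0.072 and was at 0.05 ± 0.094 in HEL. Once the trend was removed, PABPC4 was at -0.14 in MOLM-13 without a call and was called higher in HEL, at 0.30. TPT1, a small abundant protein with a classical TOP mRNA (chr13:45333471-45341370, minus strand), had 773 and 793 CPM in MOLM-13 P-bodies against 1385 and 1334 CPM in MOLM-13 cytosol. In HEL, TPT1 had 118 and 119.8 CPM in P-bodies against 127 and 117 CPM in cytosol. In MOLM-13 the P-body values were well below cytosol (-0.80 ± 0.042, adjusted p = 1.34e-14), and in HEL the groups overlapped (-0.04 ± 0.080, adjusted p = 0.73). With the trend removed TPT1 was called lower in both lines, at -1.26 and -0.38.

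The difference between the lines was tested directly, as the P-body change in MOLM-13 minus that in HEL, in a fit of all 8 libraries with TMM factors shared over them. Those factors differ from the ones computed within each line, so the differences in this fit are not those of the changes given above: with factors within each line, a setting added once the data had been seen, the difference was higher by 0.21 at the median over all genes. Of the 49 members 2 had a higher and 21 a lower difference, beside 9.15% and 13% of all 17477 tested genes, and the median difference was -0.19 where that of all genes was -0.11. Counts and values both depend on this scaling: with factors within each line the counts were 12 and 12, and leaving out the first HEL P-body library, the first HEL cytosolic library or the second HEL cytosolic library gave 18, 14 and 10 higher and 12, 9 and 10 lower. The 11 members named next kept their call under all 17 alternatives. EIF4E and EIF4G2 had the larger P-body change in MOLM-13, with differences of 0.79 ± 0.12 (adjusted p = 4.69e-05) and 0.40 ± 0.082 (adjusted p = 0.00118), which were 1.00 and 0.61 with factors within each line. The other 9 had the lower change in MOLM-13. TPT1 stood furthest out, at -0.95 ± 0.083 (adjusted p = 9.09e-08), or -0.74 with factors within each line. EIF3G and EIF6 followed, at -0.87 ± 0.10 (adjusted p = 1.95e-06) and -0.87 ± 0.10 (adjusted p = 2.88e-06). PABPC1 was at -0.80 ± 0.074 (adjusted p = 1.82e-07), EIF4EBP1 at -0.74 ± 0.095 (adjusted p = 7.67e-06) and EEF1B2 at -0.67 ± 0.086 (adjusted p = 7.45e-06). EIF4E2, EIF1AX and EIF3K completed them, at -0.67 ± 0.098, -0.66 ± 0.086 and -0.61 ± 0.086. With factors within each line, EIF3G and EIF6 were both at -0.66, PABPC1 at -0.59, EIF4EBP1 at -0.53, EEF1B2 at -0.46, EIF4E2 and EIF1AX at -0.45 each and EIF3K at -0.40. Leaving out one of those 3 HEL libraries moved the value of each of the 11 by over 1.5 times: the value nearest 0 was -0.61 for TPT1, -0.48 for EIF3G, -0.53 for EIF6, -0.47 for PABPC1, -0.38 for EIF4EBP1, -0.35 for EEF1B2, -0.34 for EIF4E2, -0.32 for EIF1AX and -0.30 for EIF3K, while EIF4E reached 1.20 and EIF4G2 0.75. EIF1AX rose in both lines, and more in HEL.

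**Figure D3:**
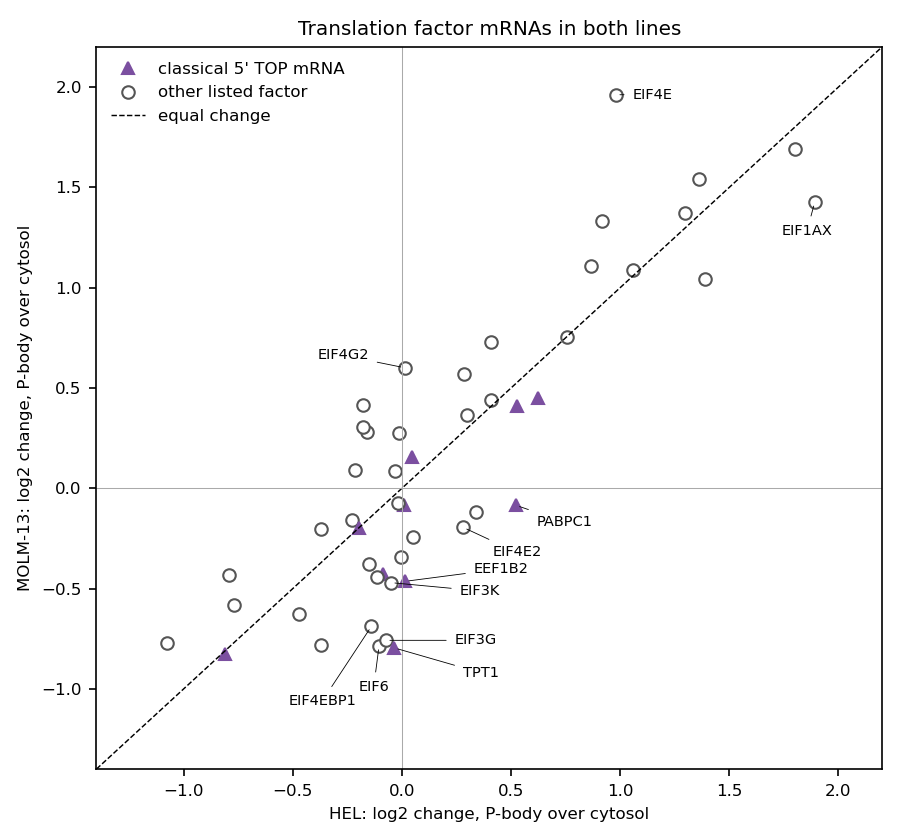
Log2 change in P-body over cytosol of each member in MOLM-13 (vertical) against HEL (horizontal), each line scaled on its own; triangles are the classical TOP mRNAs and the dashed line marks equal change. Named points are the 11 members whose difference between lines was called under all alternatives; EIF4E and EIF4G2 lie above the line and the other 9 below it.

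The classical TOP mRNAs among the members, taken from general knowledge of the class, were EEF1A1, EEF1B2, EEF1D, EEF1G, EEF2, EIF3E, EIF3F, EIF3H, EIF4B, PABPC1 and TPT1. Of the 10 tested, the P-body fraction of MOLM-13 had 3 called higher and 5 called lower (median -0.14), and that of HEL had 3 called higher and 2 called lower (median 0.01). Shares of all tested genes, for these and the other counts of this paragraph, were 32.4% higher and 28.5% lower in MOLM-13. In HEL they were 27.5% and 27.1%. In the test between lines 7 had a lower difference and 0 a higher one (median -0.34), beside 13% and 9.15% of all tested genes. Of these 7, only EEF1B2, PABPC1 and TPT1 kept the call under all 17 alternatives, and with factors within each line they were the 3 called lower, with 0 higher (median -0.13). The median depended on single HEL libraries. It was 0.014 without the first HEL P-body library, and -0.049 and -0.056 without the first and the second HEL cytosolic library. Leaving out any other library kept it between -0.41 and -0.31. EEF1A1, EIF3E and EIF4B changed sign when a HEL library was left out. The class itself was mixed, since EIF4B rose and EEF2 fell in both lines, also with the GC and length trend removed. EIF3E rose in both lines too, but with that trend removed it was called lower in both, at -0.27 in MOLM-13 and -0.25 in HEL. The 39 other members had 19 higher and 16 lower in MOLM-13 and 15 higher and 8 lower in HEL. Divided by the letters shown above instead, the 17 members with a tract had 6 higher and 10 lower in MOLM-13 (median -0.20) and 5 higher and 5 lower in HEL (median -0.01), while the 22 tested members without one had 11 higher and 7 lower in MOLM-13 (median 0.19) and 9 higher and 5 lower in HEL (median -0.02). The 79 cytosolic ribosomal protein genes, whose mRNAs are TOP mRNAs too, had 0 higher and 75 lower in MOLM-13 (median -0.50), and 14 higher and 2 lower in HEL (median 0.12).

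The split followed base composition. The Spearman correlation across members between log2 change and the GC content of the transcript was -0.79 in MOLM-13 and -0.73 in HEL (n = 49 genes, which are not independent replicates), beside -0.72 and -0.67 across all 11231 and 11946 tested coding genes. Members higher in P-bodies had a median GC content of 42.7% in MOLM-13 and 42.2% in HEL, and members lower had 54.2% and 54.7%. Among all tested coding genes, those higher had 42.2% in MOLM-13 and 41.5% in HEL, and those lower had 58.4% and 56.5%. In 3 ranges set after the data were seen, the 18 members under 45% GC had 16 higher and 2 lower in MOLM-13 and 13 higher and 0 lower in HEL. The 17 members at 52% GC or more had 0 higher and 15 lower in MOLM-13, and 1 higher and 9 lower in HEL. Shares of all tested coding genes in these ranges were not counted. The correlation across those genes was nearly as strong, so the counts by range do not set the members apart. Length of the 3′ untranslated region went with the change more weakly, with a correlation of 0.35 in MOLM-13 and 0.34 in HEL. TPT1 and EIF4EBP2 were the 2 members under 45% GC that were lower in MOLM-13, and EIF4E2 was the member over 52% that was higher in HEL.

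**Figure D4:**
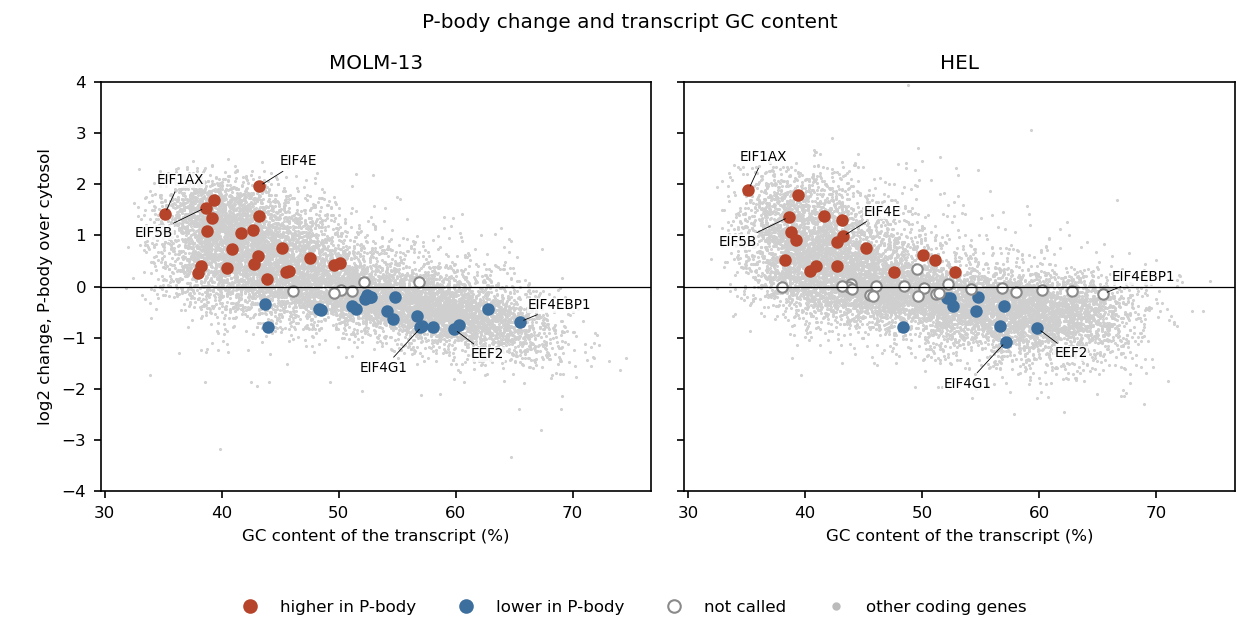
Log2 change in P-body over cytosol against the GC content of the transcript, for the members (large points: red called higher, blue lower, open not called) and the other coding genes tested in both lines (grey), in MOLM-13 (left) and HEL (right). In both panels the members follow the slope of the other genes, from EIF1AX and EIF5B at the AT-rich end to EEF2 and EIF4EBP1 at the GC-rich end.

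With a smooth trend on GC content and length removed, 13 of the 22 members higher in MOLM-13 were still called higher and 11 of the 21 lower still lower; in HEL 14 of 18 and 4 of 10 were. Calls were gained as well, by 4 of 6 members without one in MOLM-13 and by 14 of 21 in HEL. The shares of all tested genes that kept or gained a call were not counted, so these counts do not set the members apart. The HEL gains were EEF1D, EIF6, EIF2B4, EIF3G, EIF3K, EIF4EBP1 and PABPC4, called higher, and EIF2B1, EIF2B2, EIF3H, EIF3M, EIF4EBP2, EIF4G2 and TPT1, called lower. Of the members higher in MOLM-13, EIF2S3, EIF3E, EIF3H, EIF3M and EIF4A2 were called lower after removal, and of those lower, EEF1D, EIF3F and EIF4EBP1 were called higher. In HEL, EIF3E, EIF4A2 and GSPT1 were called higher before removal and lower after it. Over all 13 alternatives tried for each line, 14 members kept their call in both lines. How many of all tested genes did so was not counted. The 10 that stayed higher were EIF1AX, EIF5, EIF5B, EIF2S1, EIF2S2, EIF3A, EIF3J, EIF4E, ETF1 and LARP4, and the 4 that stayed lower were EEF2, EIF3B, EIF4G1 and EIF4G3. The calls were kept at a smaller size: of the 10 higher, 9 in MOLM-13 and 6 in HEL were at least 2-fold higher as given above, and with the trend removed 1 was in each line, EIF4E in MOLM-13 at 1.70 and LARP4 in HEL at 1.11, with the lowest at 0.34 (EIF3J) in MOLM-13 and 0.21 (EIF2S1) in HEL. The trend used a single transcript per gene, which for EIF4E has 898 bases and 43.2% GC. Removal with other transcripts was not tried, so the value of 1.70 may depend on that choice.

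Levels per transcript length, in transcripts per 1000000 (TPM), changed order with the fraction. EIF3E was at 2127 ± 24.3 TPM in MOLM-13 P-bodies (SD, n = 2) and 1682 ± 12.5 TPM in MOLM-13 cytosol, and EEF1A1 at 2057 ± 80.5 and 2291 ± 11.2 TPM, so these were the top members in both fractions in that line. EIF5B was the next in MOLM-13 P-bodies at 1960 ± 11.2 TPM and stood in place 11 in MOLM-13 cytosol at 705 ± 12.5 TPM. The difference between EIF3E and EEF1A1 in MOLM-13 P-bodies was within the spread of EEF1A1. LARP4 was in place 12 of the members in HEL P-bodies at 465 ± 33.4 TPM and in place 30 in HEL cytosol at 152 ± 8.09 TPM. These levels depend on the transcript chosen for length: with the longest annotated transcript of each gene, EIF4E came to 34.0 in place of 339 TPM in MOLM-13 P-bodies, and EIF3E, at 2122 TPM, stood below EEF1A1, at 2647 TPM, and EIF5B, at 2521 TPM.

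The wider machinery of translation outside the list was split as well. Of 41 other cytosolic factors and regulators, 39 were tested in MOLM-13, with 17 higher and 7 lower in P-bodies (median 0.14), beside 32.4% and 28.5% of all tested genes. In HEL 38 were tested, with 14 higher and 8 lower (median -0.00086), beside 27.5% and 27.1%. Changes of these genes with the GC and length trend removed are not given here, and the part of base composition was not tested. RPS6KB1, the S6 kinase that acts on EIF4B and ribosomal protein S6, had 198 and 188 CPM in MOLM-13 P-bodies against 49 and 45.9 CPM in MOLM-13 cytosol (log2 change 2.03 ± 0.070, adjusted p = 3.12e-18). PDCD4, an inhibitor of the eIF4A helicase, had 295 and 295 CPM in MOLM-13 P-bodies against 72.9 and 78.7 CPM in MOLM-13 cytosol (1.96 ± 0.060, adjusted p = 3.31e-19). Both were also higher in HEL P-bodies, at 1.01 ± 0.093 and 0.96 ± 0.067. DHX29, a helicase that helps scanning through structured leaders, rose in HEL P-bodies to 250.4 and 257 CPM against 90 and 90.8 CPM in HEL cytosol (1.49 ± 0.075, adjusted p = 3.97e-10), and LARP1B, a relative of LARP1, to 97.1 and 100.3 CPM against 32.5 and 33.3 CPM (1.58 ± 0.091, adjusted p = 1.62e-09). Among the lowest were MKNK2, a kinase that phosphorylates EIF4E, at -1.04 ± 0.092 in MOLM-13 (adjusted p = 3.8e-10), and in HEL the mTORC1 subunit RPTOR at -1.01 ± 0.14 (adjusted p = 2.92e-05) and EEF2K, the kinase that inactivates EEF2, at -0.80 ± 0.13 (adjusted p = 0.000142). EIF3CL, the near copy of EIF3C, was at -1.25 ± 0.13 in MOLM-13 (adjusted p = 9.43e-09), with reads that may belong to either gene.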

How the data were processed

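RNA from P-body and cytosolic fractions of MOLM-13 and HEL cells was sequenced, per the labels, after extraction with a miRNeasy Micro kit and library preparation with a NEBNext Ultra II kit. The values deposited by the authors are raw counts per symbol, with 1 table per line. The tools and build named in the submitters' processing notes are STAR, SAMtools 1.12, DESeq2 and GRCh38. The sources used here give no read counter, annotation or strand setting, so reads of overlapping or near-identical genes cannot be told apart. Of 61544 rows, 1348 that shared 112 symbols were left out. Counts were tested with edgeR 4.0.16 in R 4.3.3 (quasi-likelihood, TMM factors, filterByExpr with a minimum count of 10, Benjamini-Hochberg over all tested genes, threshold 0.05), within each line and, for the difference between lines, over all 8 libraries. Standard errors are the log2 change over the root of the F statistic. Tested on simulated data, the MOLM-13 design recovered 76% of 100 genes changed 1.5-fold and 98% of those changed 2-fold, and the HEL design 83% and 100%. The simulation gave all genes a common dispersion and changed far fewer genes than were called here. These rates may therefore not hold for the real libraries.

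Transcript length and GC content are those of the transcript with the longest coding sequence of each gene in GENCODE 29, which need not be its longest transcript. Gene coordinates are the span of the whole gene there. Start sequences are from RefSeq on GRCh38.p14, where 40 members were found. The alternatives were RLE factors, library totals, no filter, a filter at 5 CPM, DESeq2 1.42.0, a replicate block, removal of the GC and length trend (mgcv 1.9.3), a joint fit and leaving out each library; TMM within each line, tracts at the listed start itself and GC ranges were added after seeing the data. The members and lists were chosen with earlier results of these data known. Named members were the 6 highest and 6 lowest called in each line, those opposite between lines, the 6 with the lowest p between lines and the lowest p in each role and line; single values of the others are added. From the other lists, the 2 highest and 2 lowest called in each line were named. Replicate libraries differed by more than sampling noise (chi-square per degree of freedom 1.87 to 6.15 over genes with at least 20 counts a pair).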

Additional observations from a re-analysis of the deposited data

Results flagged for a closer look

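For 23 members the P-body change differed between the lines in the direct test (edgeR quasi-likelihood test over all 8 libraries, adjusted p below 0.05), and each value below is the log2 change in MOLM-13 minus that in HEL with TMM factors shared over all libraries; with factors within each line such values are higher by 0.21 at the median over all genes. The difference was 0.79 for EIF4E and 0.40 for EIF4G2. It was -0.95 for TPT1, -0.87 for EIF3G and for EIF6 alike, -0.80 for PABPC1 and -0.74 for EIF4EBP1. EEF1B2 and EIF4E2 stood at -0.67 each, EIF1AX at -0.66 and EIF3K at -0.61. All 11 of these kept their call under the 17 alternatives.

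The other 12 lost their call under one or more alternatives. Among them EIF5A was at -0.60, EIF5 at -0.54, EEF1D and EIF4EBP2 at -0.53 each, LARP1 at -0.52, PABPC4 at -0.49 and EIF3I at -0.42. EIF4B at -0.36, EIF3E at -0.31, LARP4 at -0.30, EEF1A1 at -0.29 and EIF1 at -0.25 also changed sign when a HEL library was left out.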

How the results depend on the processing

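With library totals, MOLM-13 had 12 members higher (all genes 2903 higher, 7154 lower) and HEL 30 lower (all genes 6761), and the members' medians were -0.51 in MOLM-13, -0.33 in HEL and -0.11 between lines. DESeq2 called 2617 genes lower in MOLM-13 and 1454 between lines, with members' medians of 0.046 in HEL and -0.12 between lines. RLE factors gave 0.046 and -0.12, and 4 members higher between lines. A filter at 5 CPM gave medians of -0.16 in MOLM-13, -0.027 in HEL and -0.26 between lines, no filter -0.12 between lines, and a joint fit -0.19 in MOLM-13 and 0.072 in HEL. TMM within each line gave 2754 genes higher and 1326 lower between lines, 12 members each way and a median of 0.021.

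Leaving out a library moved the members' median between -0.070 and 0.034 in MOLM-13, -0.021 and 0.081 in HEL and -0.22 and 0.13 between lines. Between lines it gave 1198 to 3441 genes higher and 880 to 2054 lower, and 2 to 18 members higher and 9 to 22 lower; the lone library left in a group is assumed to vary like the other groups. Between lines EEF1A1 then ran from -0.39 to 0.13, EIF1 from -0.28 to 0.10, EIF3E from -0.33 to 0.021, EIF4B from -0.43 to 0.015 and LARP4 from -0.38 to 0.080. In HEL, TPT1 ran from -0.093 to 0.037, EIF6 from -0.13 to 0.012, EIF3G from -0.17 to 0.026 and EEF1B2 from -0.020 to 0.068.

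Removing the GC and length trend gave a HEL median of 0.060 and turned EIF4E2 to 0.013 and EIF4EBP1 to 0.24 in MOLM-13, and in HEL EIF6 to 0.32, EIF5A to 0.012, EIF3G to 0.40, EIF4EBP1 to 0.40 and EEF1B2 to -0.0054. In HEL, TPT1 was 0.014 with RLE factors, 0.015 with DESeq2 and 0.042 in the joint fit, EIF3G 0.0032 in the joint fit, EEF1B2 -0.31 with library totals and -0.0041 with the 5 CPM filter, and EIF4E2 -0.046 with library totals. The cause of these moves was not tested.

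The labels do not say that equal replicate numbers pair libraries, and the deviations of same-numbered libraries correlated at -0.021 in MOLM-13 and 0.23 in HEL. With the replicate block 22 members were higher and 21 lower in MOLM-13, 18 and 9 in HEL, and 2 and 20 between lines. The replicate block with the trend removed gave a HEL median of 0.059, EIF4E2 0.015 and EIF4EBP1 0.24 in MOLM-13, and EIF6 0.32, EIF5A 0.012, EIF3G 0.40, EIF4EBP1 0.40 and EEF1B2 -0.0053 in HEL. Low or zero counts limit EIF4A1 and EEF1G, and groups of 2 limit every p.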

Other observations

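Of the 10 mitochondrial translation factors, which serve the ribosomes inside mitochondria, 9 were tested in each line. In P-bodies 7 were higher and 1 lower in MOLM-13 (median 0.98), and 6 were higher and 2 lower in HEL (median 0.68), beside 32.4% and 28.5% of all tested genes in MOLM-13 and 27.5% and 27.1% in HEL. Their changes with the GC and length trend removed are not given here. How far these counts go with base composition was not tested. MTIF2, the mitochondrial initiation factor that places the initiator tRNA, had 477 and 460.1 CPM in MOLM-13 P-bodies against 130.0 and 142 CPM in MOLM-13 cytosol (log2 change 1.78 ± 0.054), and 217 and 207 CPM in HEL P-bodies against 95.8 and 87.3 CPM in HEL cytosol (1.21 ± 0.081). MTRF1, a mitochondrial release factor, rose as well, at 1.74 ± 0.078 in MOLM-13 and 1.11 ± 0.10 in HEL. TUFM, the mitochondrial counterpart of EEF1A1, was lower, at -0.23 ± 0.049 in MOLM-13 and -0.24 ± 0.079 in HEL. GFM2, a factor of mitochondrial ribosome recycling, was higher in MOLM-13 P-bodies at 1.10 ± 0.20 and lower in HEL P-bodies at -0.29 ± 0.11.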
